A study of Mus musculus with 8 samples.

Results

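Liver RNA of mice given carbon tetrachloride (CCl4) was compared with liver RNA of mice given the corn oil vehicle, both on normal chow. The comparison used 5 of the 8 libraries of the series, 2 of normal diet with CCl4 and 3 of normal diet with oil, and every gene with at least 1 FPKM in at least 2 of the 5. FPKM is a fragment count divided by transcript length and by the fragments mapped in that library. All animals were wild-type male C57BL/6N mice that drank tap water and received CCl4 or corn oil into the peritoneum at weekly intervals, per the labels' protocols. How much CCl4 was injected, for how many weeks, how long before sampling, and how old the animals were are points that the sources used here do not give. The other 3 libraries were 2 of western diet with oil and 1 of western diet with CCl4. In the statistical fit the 2 with oil helped to estimate the spread between libraries. The 1 with CCl4, alone in its group, could add nothing to that spread. All 3 served to test whether the CCl4 difference was another under that diet.

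CCl4 is a solvent that hepatocytes around the central vein turn into a radical through cytochrome P450, chiefly Cyp2e1. The radical attacks membrane lipids, kills these pericentral cells and is followed by division of the surviving hepatocytes, while repeated injury activates stellate cells, which lay down collagen. Because the liver has a strict layout, from periportal cells that make urea to pericentral cells that make glutamine, and because male mice express a set of genes under pulsed growth hormone, RNA of whole liver reports on injury, zone and hormonal state at once. In whole tissue, fewer cells of a type and less RNA per cell cannot be told apart.

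The deposited values summed to between 587543 and 612747 FPKM in the oil libraries and to 514832 and 534106 in CCl4 libraries 1 and 2. FPKM carry no depth, so how deeply a library was sequenced is unknown and counting error could not be given. CCl4 library 1 stood apart: 14843 genes were above 0 in it, against 12531 to 13373 in the oil libraries and 13305 in CCl4 library 2, and it held the highest of the 5 values for 56.8% of the tested genes. Oil library 3 also stood apart for clock genes, with Dbp at 0.481 FPKM against 51.1 and 47.8 in oil libraries 1 and 2 and 60.1 and 91.0 in the CCl4 libraries, and with Arntl at 4.30 FPKM against 0 in oil libraries 1 and 2. The 5 hepatocyte markers (Alb and Cps1 among them) were listed in each library. All 5 markers of exocrine pancreas and 4 of 5 of adipocytes were at 0 throughout, as were the T cell gene Cd3d, the B cell gene Ms4a1, the neutrophil gene Ly6g and the cholangiocyte gene Cftr.

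A test was made for 10686 genes with limma on log2(FPKM + 1), on which a difference of 1 is close to a 2-fold change of a well expressed gene and less than that of a low gene. At an adjusted p below 0.05, 128 genes rose (1.20% of those tested) and 53 fell (0.496%), 181 in all (1.69%). On every one of them the CCl4 libraries lay beyond all oil libraries. Leaving out a library therefore could not turn the direction of any of the 181. Of the 128 genes that rose, 41 had fewer than 2 oil libraries at 1 FPKM and entered the test only through the CCl4 libraries, which a gene could do only by being high there. The other 87 reached 1 FPKM in at least 2 oil libraries. The median log2 difference over all tested genes was 0.26, with 0.33 in CCl4 library 1 and 0.17 in CCl4 library 2. Scaling the libraries by the median of ratios, which moved that median to -0.01, gave 46 higher and 58 lower genes (44.2% higher, against 70.7% as deposited), and scaling to a common sum gave 547 higher and 66 lower (89.2%). The number of calls leaned on single libraries: 31 genes passed without CCl4 library 1 and 668 without CCl4 library 2, where the lone CCl4 library left was assumed to vary like the other groups. It was 92, 54 and 91 without oil libraries 1, 2 and 3, 99 without either western diet and oil library, and 182 without the western diet and CCl4 library. Leaving out a western diet and oil library took the spread of that pair from the fit. The western diet and CCl4 library had no spread to add, so leaving it out could change little. Of 51 named genes that passed, 15 passed with each of the 8 libraries left out in turn, and none changed direction in any alternative.

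What both CCl4 libraries shared was counted without a test. A gene was called shared when both libraries lay at least 1 log2 unit beyond the nearest oil library, and called a gene of 1 library when that library did so while the other did not pass the nearest oil library at all. By this rule 71 genes were shared higher (0.664% of the tested genes) and 58 shared lower (0.543%). CCl4 library 1 alone was higher for 98 genes (0.917%) and lower for 10 (0.0936%), while CCl4 library 2 alone was higher for 7 (0.0655%) and lower for 7. A further 368 genes (3.44%) were higher in both but passed the step of 1 in CCl4 library 1 only, and 26 (0.243%) in CCl4 library 2 only. On the lower side these were 39 (0.365%) and 14 (0.131%), and the remaining 9988 genes (93.5%) were in no class. Of the 181 genes that passed the test, 111 were in a shared class and 0 in a class of 1 library. The 2 CCl4 libraries differed from each other by at least 1 log2 unit on 600 genes, more than any pair of oil libraries (199 to 469), and 451 of the 600 were higher in library 1. CCl4 library 1 differed from the oil libraries on 985 to 1362 genes and CCl4 library 2 on 410 to 663.

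**Figure D1:**
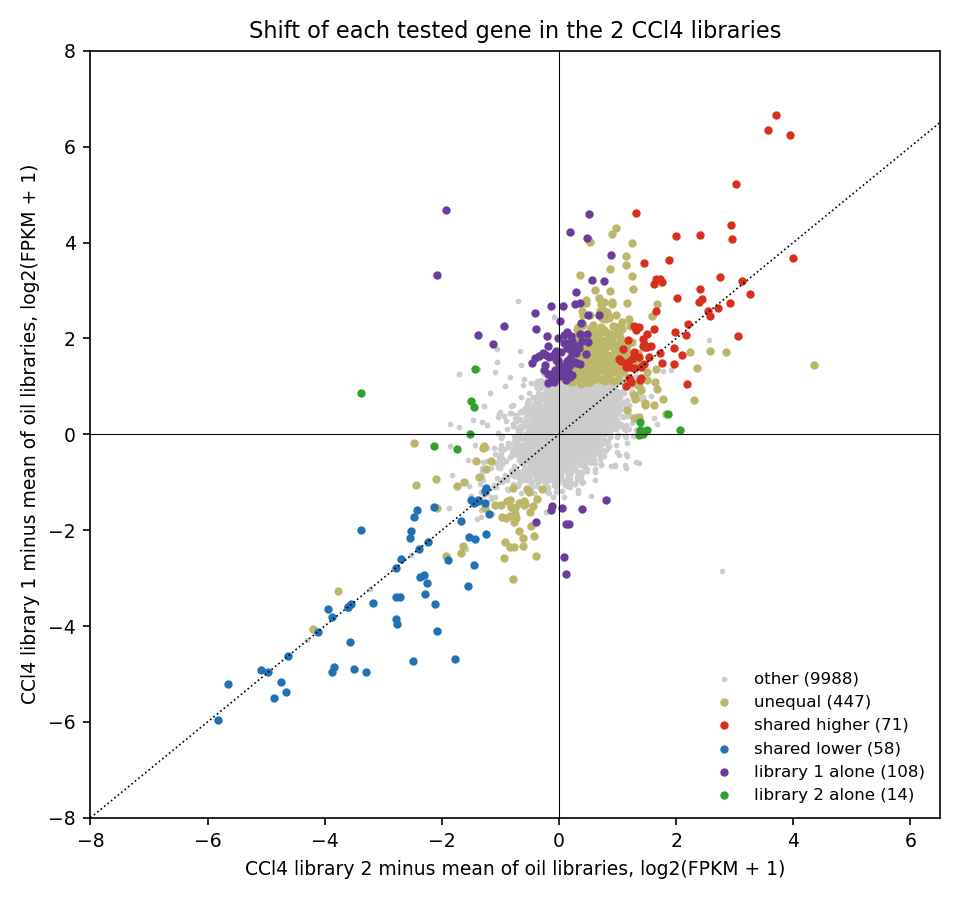
Each point is 1 tested gene. The x axis is CCl4 library 2 and the y axis CCl4 library 1, each minus the mean of the 3 oil libraries on log2(FPKM + 1), the dotted line marks equal shifts, colours mark the classes with their number of genes, and 1 gene, Mup-ps18, lies outside the axes at -11.1 on both. Lower genes reach down to about -6 in both libraries. Of the genes that passed the test, 91 higher and 33 lower genes lay further from the oil mean in library 1. In library 2, 37 higher and 13 lower genes did.

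Glutathione transferases rose in both CCl4 libraries. These enzymes join glutathione to reactive lipids and drugs. Gsta2 stood at 13.4, 7.95 and 7.97 FPKM in oil libraries 1 to 3 and at 95.1 and 90.6 in CCl4 libraries 1 and 2, nearly equal levels far above the oil range. Its log2 difference was 3.16 ± 0.31 (SE; limma adjusted p = 0.00447). Gstm3 had 46.7, 37.4 and 36.7 FPKM with oil and 687 and 315 with CCl4, a difference of 3.51 ± 0.33 (adjusted p = 0.00374). Gsta1 had 4.40, 1.95 and 1.05 FPKM with oil and 259 and 37.1 with CCl4, so that both libraries were far above oil but not alike. Its difference was 4.96 ± 0.79 (adjusted p = 0.0282). Gsta2 and Gstm3 passed with each library left out, while Gsta1 missed without oil library 2, oil library 3 or CCl4 library 1 (adjusted p = 0.0825, 0.0659 and 0.121). Gsta1, Gsta2 and the predicted genes Gm3776 and Gm10639, all shared higher, are neighbours on chromosome 9 between positions 78230656 and 78355788 (GRCm38), and their near-identical sequences make the split of fragments among them uncertain.

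The list of targets of NRF2, the transcription factor that answers oxidative and electrophilic stress, held 30 tested genes. Of these, 4 rose (the 3 transferases and Nqo1) and 0 fell, where 1.20% and 0.496% of all tested genes did. For 17, both CCl4 libraries were above all oil libraries, where 41.8% of all tested genes were. The list median was 0.57 against 0.26 over all genes. Without oil library 2, oil library 3 or CCl4 library 1 the count was 2, and without CCl4 library 2 it was 7. Nqo1, a quinone reductase, had 2.69, 2.53 and 1.69 FPKM with oil and 11.5 and 5.74 with CCl4, with a difference of 1.49 ± 0.27 (adjusted p = 0.0395). Its call was lost without any 1 of the 3 oil, CCl4 library 1 or 2 western diet and oil libraries (adjusted p up to 0.178). Other members stood high in library 1 mainly. Gclc, a subunit of the enzyme that starts glutathione synthesis, had 34.9, 36.2 and 41.0 FPKM with oil and 81.4 and 28.6 with CCl4, so library 2 lay below oil. The sulfiredoxin Srxn1 had 11.3, 10.5 and 8.35 with oil and 44.9 and 12.9 with CCl4. Neither passed. Heme oxygenase Hmox1 had 10.2, 8.00 and 4.78 FPKM with oil and 20.8 and 7.12 with CCl4, so CCl4 library 2 lay inside the oil range.

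The xenobiotic P450 list had 26 tested genes, of which 5 rose and 1 fell, where 1.20% and 0.496% of all tested genes did. The list median was 0. Of the rises, 2 (Cyp2b9 and Cyp3a16) had fewer than 2 oil libraries at 1 FPKM and were tested only through the CCl4 libraries. With a CCl4 library left out, Cyp3a16 could not be tested, since too few libraries then reached 1 FPKM. Cyp3a11, the major drug-metabolizing P450 of the 3a family, had 914, 565 and 648 FPKM with oil and 1792 and 2178 with CCl4, a difference of 1.51 ± 0.25 (adjusted p = 0.0311), and missed without oil library 2, oil library 3, either CCl4 library or either western diet and oil library (up to 0.141). The other rises were Cyp2c55, with 4.40, 3.51 and 1.84 FPKM with oil and 13.6 and 10.6 with CCl4, and Cyp2a4, Cyp2b9 and Cyp3a16, which are female-biased and described with that list. Cyp2c37 fell, from 106, 81.2 and 112 FPKM to 7.53 and 22.0, by 2.83 ± 0.39 on the log2 scale (adjusted p = 0.0188), and passed with each library left out. Its relatives Cyp2c29 (514, 523 and 483 FPKM with oil, 84.1 and 264 with CCl4) and Cyp2c54 (77.1, 69.5 and 91.0 with oil, 12.6 and 59.5 with CCl4) lay below the oil range in both libraries, further in library 1, and did not pass. Cyp2e1, the enzyme that activates CCl4, had 2297, 2406 and 1790 FPKM with oil and 1070 and 1351 with CCl4, below all oil libraries, and did not pass (difference -0.84 ± 0.23, adjusted p = 0.111). Cyp1a2, which oxidizes aromatic amines, had 289, 231 and 211 FPKM with oil and 286 and 179 with CCl4, with library 1 inside and library 2 below the oil range. The number of rises was 1 under median-of-ratios scaling, 2 without oil library 2, oil library 3, CCl4 library 2 or either western diet and oil library, and 0 without CCl4 library 1.

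**Figure D2:**
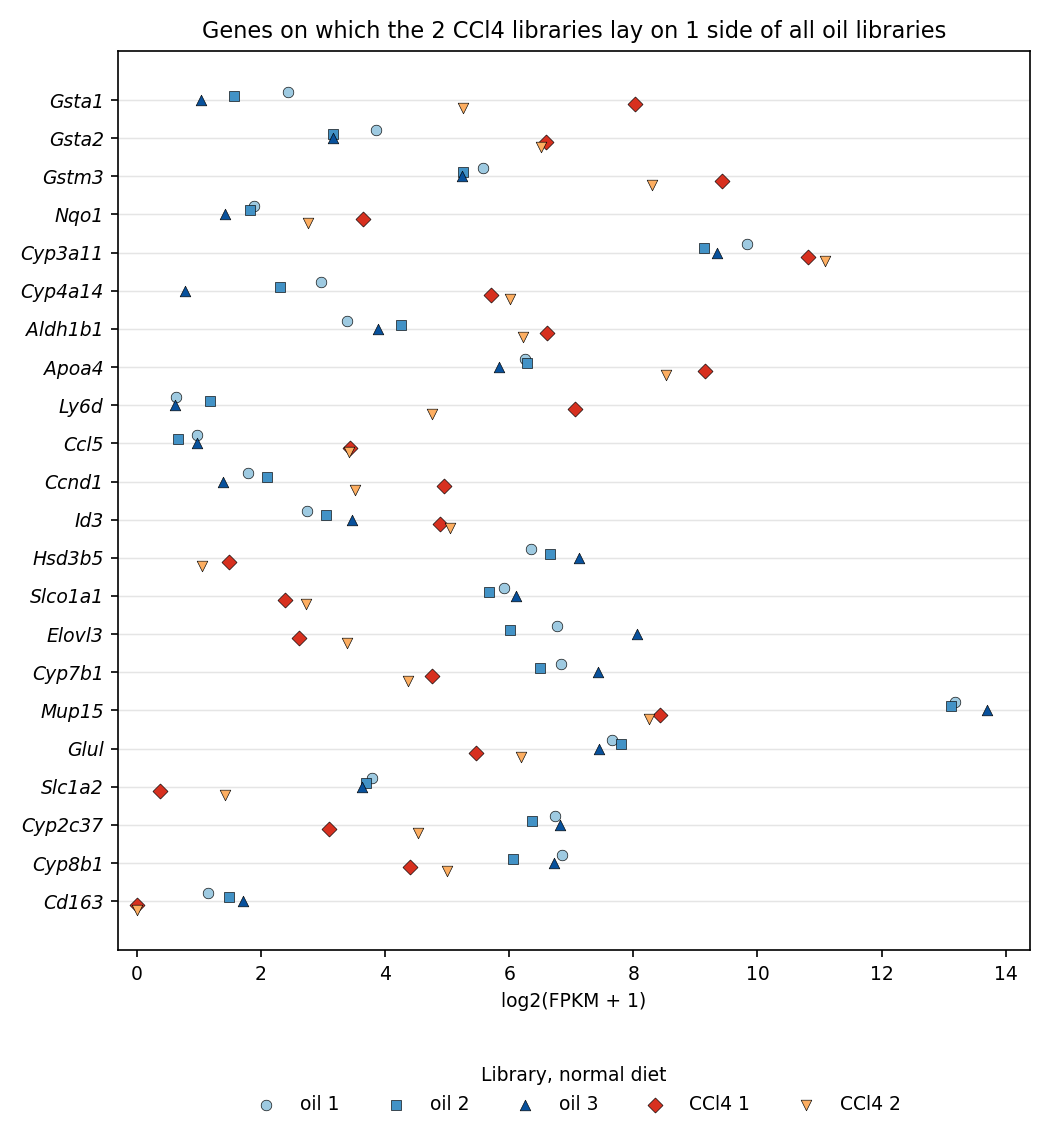
The x axis is log2(FPKM + 1), each row is 1 gene, and each symbol is 1 of the 5 normal diet libraries. In every row the 2 CCl4 libraries lie to 1 side of the 3 oil libraries: the first 12 genes are higher with CCl4 and the last 10 lower.

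Genes that mark the male mouse liver fell in both CCl4 libraries, and several female-biased genes rose. Of 25 tested male-biased genes 9 fell and 0 rose, where 0.496% and 1.20% of all tested genes did. Their median was -1.23, and 20 of the 25 had both CCl4 libraries below all oil libraries, where 4.00% of all tested genes did. Of 11 tested female-biased genes 6 rose and 0 fell. However, 5 of the 11, with 4 of the 6 rises, had fewer than 2 oil libraries at 1 FPKM. These were tested only because they were high with CCl4. The other 2 rises were Cyp2a4 and Cyp4a14. The summed level of the male list was 0.224 and 0.268 of the oil mean in CCl4 libraries 1 and 2, and that of the female list 3.86-fold and 3.71-fold, so the 2 libraries were close in both. Single genes weigh on the female sum, which was 159 and 153 FPKM in CCl4 libraries 1 and 2. In it Cyp4a14 had 51.1 and 63.7 FPKM and Cyp2a4 37.3 and 25.4, so these genes differed between the libraries in opposite directions. The male list includes major urinary protein (Mup) genes, which weigh on its sum. That sum was 56640, 60570 and 98930 FPKM with oil, in which Mup15 alone had 9310, 8934 and 13330. With the Mup family removed and the libraries rescaled, 18 male-biased genes were tested and 6 fell, with a median of -1.12. The male count was 5 without CCl4 library 1 and from 7 to 12 with any other library left out. The female count was 2 with a pseudocount of 0.1 or a mean of at least 5 FPKM, 1 under median-of-ratios scaling, 2 without any 1 oil library or CCl4 library 2 and 0 without CCl4 library 1. The 6 rises were Cyp2a4, Cyp2b9, Cyp3a16, Cyp4a14, Acot3 and Abcd2, of which Cyp4a14 and Acot3 also belong to the PPAR-alpha list. Cyp3a16, Acot3 and Abcd2 could not be tested with a CCl4 library left out, since too few libraries then reached 1 FPKM. Similar copies within the Mup, Cyp2a, Cyp3a and Cyp4a families make the split of fragments uncertain.

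Hsd3b5, a steroid dehydrogenase of male liver, had 80.2, 100.4 and 138 FPKM with oil and 1.81 and 1.08 with CCl4. It fell by 5.44 ± 0.49 on the log2 scale (adjusted p = 0.00364), and the groups were far apart. Slco1a1, an organic anion transporter of male liver, had 59.6, 50.1 and 67.9 FPKM with oil and 4.22 and 5.65 with CCl4, and fell by 3.34 ± 0.23 (adjusted p = 0.00176). Both passed with each library left out. Elovl3, a fatty acid elongase, had 109, 63.9 and 265 FPKM with oil and 5.13 and 9.43 with CCl4 and fell by 3.95 ± 0.59 (adjusted p = 0.0230), but missed without CCl4 library 1 (adjusted p = 0.178). The oxysterol hydroxylase Cyp7b1 had 113, 89.1 and 172 FPKM with oil and 25.9 and 19.7 with CCl4 and fell by 2.36 ± 0.28 (adjusted p = 0.0101; 0.0527 without CCl4 library 1).

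The major urinary proteins (Mup), pheromone carriers that male liver makes in large amounts, held 16.9%, 22.1% and 32.5% of all FPKM in oil libraries 1 to 3 and 2.80% and 4.65% in CCl4 libraries 1 and 2. Of 41 tested Mup genes and pseudogenes 19 fell, where 0.496% of all tested genes did, 40 had a difference below 0 and 28 were shared lower. Those 28 lie on chromosome 4 between positions 60066469 and 62150863 (GRCm38). Mup15 had 9310, 8934 and 13330 FPKM with oil and 342 and 305 with CCl4, and fell by 5.00 ± 0.29 (adjusted p = 0.00136), again with little difference between the CCl4 libraries. Mup20, the pheromone darcin, was an exception: 4603, 3698 and 5650 FPKM with oil and 3114 and 4165 with CCl4, so that CCl4 library 2 lay inside the oil range. Copies of the family are nearly identical, so levels of single members are uncertain. Outside the family 34 genes fell and 30 were shared lower. With the family removed and the libraries rescaled, 83 genes rose and 43 fell.

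On the female-biased side, Cyp2a4, a steroid hydroxylase, had 4.43, 4.01 and 1.22 FPKM with oil and 37.3 and 25.4 with CCl4, a difference of 3.02 ± 0.52 (adjusted p = 0.0347), and missed without any 1 oil library or CCl4 library 1 (up to 0.247). Cyp3a16 was listed at 0 in the 3 oil libraries and at 3.13 and 7.32 FPKM in the CCl4 libraries (adjusted p = 0.00651). Cyp2b9 had 0, 1.61 and 0.286 FPKM with oil and 3.96 and 9.83 with CCl4, higher in library 2 (difference 2.29 ± 0.44, adjusted p = 0.0490), and missed without oil library 1, oil library 3, either CCl4 library or either western diet and oil library (up to 0.116). Abcd2, a peroxisomal transporter of very long fatty acids, had 0.535, 0.630 and 0 FPKM with oil and 5.12 and 2.36 with CCl4 (adjusted p = 0.0347; up to 0.0787 without 1 library). Cyp2b13, Sult3a1, Cux2 and A1bg, female-biased as well, were at 0 in all 5 libraries. The growth hormone axis itself held 0 calls among 18 tested genes, 3 of them beyond the oil libraries on the higher side (41.8% of all tested genes were) and 1 on the lower (4.00% were). Igf1, the main hepatic product of growth hormone signalling, had 138, 115 and 120 FPKM with oil and 119 and 167 with CCl4.

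Pericentral genes fell in part. Of 19 tested markers of the cells around the central vein, 3 fell (Glul, Slc1a2 and Cyp2c37), 0 rose and 16 did not pass. Of all tested genes, 0.496% fell and 1.20% rose. The list median was -0.12 as deposited, -0.42 under median-of-ratios scaling and 0.02 after scaling to a common sum, so its sign turned with the scale, while 3 genes fell under each of those scales and 1 rose after scaling to a common sum. The count was 2 without oil library 2 or CCl4 library 1. Glul, the glutamine synthetase of the innermost pericentral cells, had 200.1, 221 and 174 FPKM with oil and 42.9 and 72.3 with CCl4, and fell by 1.81 ± 0.25 (adjusted p = 0.0188; 0.0717 without oil library 2 and 0.102 without CCl4 library 1). The glutamate transporter Slc1a2 had 12.9, 12 and 11.4 FPKM with oil and 0.301 and 1.67 with CCl4, and fell by 2.81 ± 0.28 (adjusted p = 0.00447), also with each library left out. Oat, an ornithine aminotransferase of the same cells, had 198, 214 and 98.1 FPKM with oil, 18.9 in CCl4 library 1 and 93.2 in CCl4 library 2, and did not pass. Both CCl4 libraries lay below all oil libraries for 7 of the 19, where 4.00% of all tested genes did. They lay above them for 4 of the 19, where 41.8% of all tested genes did. Among these 4 was the retinal dehydrogenase Aldh1a1 (343, 367 and 338 with oil, 557 and 503 with CCl4).

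Of 21 periportal markers, 2 rose (1.20% of all tested genes did) and 0 fell, with a median of 0.60 against 0.26 over all genes. Under median-of-ratios scaling 1 rose, with a median of 0.27 against -0.01, and after scaling to a common sum 3 rose. The count was 1 with any 1 oil library left out. Aldh1b1, a mitochondrial aldehyde dehydrogenase, had 9.46, 18 and 13.8 FPKM with oil and 96.2 and 74.0 with CCl4, a difference of 2.57 ± 0.26 (adjusted p = 0.00519; 0.0526 without CCl4 library 1). Hsd17b13, a lipid droplet enzyme, had 159, 140.5 and 124 FPKM with oil and 454 and 295 with CCl4, a difference of 1.37 ± 0.24 (adjusted p = 0.0353), and its call was lost without any 1 oil library, CCl4 library 1 or either western diet and oil library (adjusted p up to 0.214). Alb, the gene of albumin, had 21310, 21070 and 18440 FPKM with oil and 38050 and 32100 with CCl4, above the oil range, and did not pass (adjusted p = 0.154).

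Of 26 tested bile acid genes 1 rose and 3 fell, where 1.20% and 0.496% of all tested genes did. The number of rises was 0 under median-of-ratios scaling and 5 after scaling to a common sum. It was 2 without oil library 1 and 0 without oil library 2 or oil library 3. The number of falls was 2 under median-of-ratios scaling and without any 1 oil library. Cyp8b1, which sets the share of cholic acid, had 114, 66.0 and 104 FPKM with oil and 20.1 and 31.1 with CCl4, and fell by 1.84 ± 0.35 (adjusted p = 0.0458). It missed without any 1 oil library, CCl4 library 1 or either western diet and oil library (adjusted p up to 0.306). Slco1a1 and Cyp7b1, described above, were the other falls. Cyp39a1, another oxysterol hydroxylase, had 3.17, 1.24 and 2.65 FPKM with oil and 10.4 and 7.95 with CCl4, a difference of 1.64 ± 0.28 (adjusted p = 0.0335), and missed without oil library 2, oil library 3, CCl4 library 1 or either western diet and oil library (up to 0.227). Cyp7a1, whose step limits the rate of bile acid production, had 6.04, 8.26 and 8.71 FPKM with oil and 13.2 and 20.1 with CCl4, above the oil range in both, and did not pass (adjusted p = 0.0888).

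Fatty acid oxidation genes under PPAR-alpha, the fasting and lipid sensor of hepatocytes, lay mostly above oil. Of 33 tested, 5 rose and 0 fell, where 1.20% and 0.496% of all tested genes did. For 23, both CCl4 libraries were above all oil libraries, where 41.8% of all tested genes were. The list median was 0.61 against 0.26 over all genes. Of the rises, 2 (Acot3 and Cyp4a31) had fewer than 2 oil libraries at 1 FPKM and were tested only through the CCl4 libraries. With a CCl4 library left out, Acot3 could not be tested, since too few libraries then reached 1 FPKM. All 5 rises were omega-hydroxylases of the Cyp4a family or the thioesterase Acot3, and the 4 Cyp4a genes (Cyp4a10, Cyp4a14, Cyp4a31 and Cyp4a32) were also shared higher and are neighbours on chromosome 4 between positions 115486200 and 115621602 (GRCm38), where similar copies make their split uncertain. Cyp4a14 had 6.85, 3.95 and 0.718 FPKM with oil and 51.1 and 63.7 with CCl4, a difference of 3.84 ± 0.58 (adjusted p = 0.0247; 0.071 without oil library 2 and 0.145 without CCl4 library 1). Cyp4a10 had 14.5, 15.6 and 3.34 FPKM with oil and 77.5 and 98.8 with CCl4, a difference of 3.09 ± 0.57 (adjusted p = 0.0416), and missed without oil library 1, oil library 2, either CCl4 library or either western diet and oil library (up to 0.213). In both of these genes CCl4 library 2 was the higher. Cyp4a12a, the male-biased member, went the other way, with 73.1, 104 and 68.5 FPKM with oil and 15 and 44.8 with CCl4. The count of 5 was 1 under median-of-ratios scaling, and 0 without oil library 2 or CCl4 library 1.

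Shared increases outside these groups included apolipoproteins and cell surface genes. Ly6d, a membrane protein of some epithelial and B lineage cells, had 0.553, 1.27 and 0.528 FPKM with oil and 132 and 26.1 with CCl4, and had the largest rise among named genes, 5.10 ± 0.56 (adjusted p = 0.00699). Apoa4, carried on chylomicrons and other triglyceride-rich lipoproteins, had 75.8, 76.8 and 55.8 FPKM with oil and 570.0 and 367 with CCl4, a difference of 2.72 ± 0.27 (adjusted p = 0.00447). Both passed with each library left out. Apoc2, the activator of lipoprotein lipase, had 15.9, 45.2 and 35.7 FPKM with oil and 631 and 234 with CCl4 (difference 3.65 ± 0.70, adjusted p = 0.0488), and missed without any 1 oil library or CCl4 library 1 (up to 0.317). The monocarboxylate transporter family member Slc16a5 had 0, 0.480 and 0 FPKM with oil and 6.58 and 7.61 with CCl4 (adjusted p = 0.00176). Slc16a5 passed with each of 6 libraries left out and could not be tested without a CCl4 library, since too few libraries then reached 1 FPKM.

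Further genes passed with values that leaned on 1 library. Ubd, an interferon-induced ubiquitin-like protein, had 0.438, 0.733 and 0 FPKM with oil and 11.9 and 3.29 with CCl4 (difference 2.45 ± 0.44, adjusted p = 0.0376), and was the 1 of 26 tested interferon genes that rose. With fewer than 2 oil libraries at 1 FPKM, Ubd was tested only through the CCl4 libraries. Ifi27l2b, a relative of interferon-induced Ifi27, had 5.04, 8.69 and 2.89 FPKM with oil and 109 and 31.2 with CCl4 (difference 3.28 ± 0.55, adjusted p = 0.0320). Rgs5, a regulator of G protein signalling in pericytes and stellate cells, had 2.44, 2.42 and 3.93 FPKM with oil and 10.8 and 6.73 with CCl4 (difference 1.30 ± 0.24, adjusted p = 0.0416). All 3 were higher in library 1 than in library 2. On the lower side, Fitm1, which helps to form lipid droplets, had 43.7, 47.5 and 14.1 FPKM with oil and 2.71 and 5.67 with CCl4 (difference -2.68 ± 0.51, adjusted p = 0.0480). The male-biased peroxisomal hydrolase Nudt7 had 177, 182 and 194 FPKM with oil and 65.7 and 92.1 with CCl4 (difference -1.23 ± 0.20, adjusted p = 0.0282). Each of these 5 lost its call when 1 of several libraries was left out, with adjusted p up to 0.0905 for Ubd, 0.178 for Ifi27l2b and Nudt7, 0.257 for Rgs5 and 0.311 for Fitm1.

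Signals of non-hepatocyte cells that both libraries shared were few. Ccl5, a chemokine that T and NK cells and other cells make, had 0.958, 0.582 and 0.963 FPKM with oil and 9.84 and 9.65 with CCl4, a difference of 2.56 ± 0.26 (adjusted p = 0.00472). Beside it, 1 of 2 tested T and NK genes rose (Ccl5 itself), both of them tested only through the CCl4 libraries, and 5 of the 20 in the list were at 0 in all 5 libraries. The summed level of the 5 defining markers, which include Cd3d at 0 throughout, was 1.17, 0.374 and 0 FPKM with oil and 2.36 and 2.00 with CCl4, and its part in the Ccl5 result was not tested. Id3, a transcriptional inhibitor in the Kupffer cell list, had 5.66, 7.24 and 10.1 FPKM with oil and 28.4 and 31.9 with CCl4 (difference 1.88 ± 0.30, adjusted p = 0.0282; 0.0564 without oil library 1, 0.0856 without oil library 2 and 0.154 without CCl4 library 1). Cd163, the haemoglobin scavenger receptor of resident macrophages, had 1.20, 1.81 and 2.25 FPKM with oil and was listed at 0 in both CCl4 libraries (adjusted p = 0.0195; 0.0706 without oil library 2 and 0.126 without CCl4 library 1).

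The cell cycle set CCl4 library 1 apart from the other 4. Of 40 genes of mitosis and the cell cycle, 40 were highest in CCl4 library 1, where 57.5% of all genes above 0 in any of the 5 were. Of the 40, 33 reached 1 FPKM in CCl4 library 1 and in no other of the 5 libraries. The summed level of the 40 was 16.9, 18.4 and 18.2 FPKM with oil, 358 in CCl4 library 1 and 29.5 in CCl4 library 2. These last are 20.1-fold and 1.65-fold the oil mean. Mki67, the proliferation antigen Ki-67, was listed at 0 in the oil libraries and in CCl4 library 2 and at 7.40 FPKM in CCl4 library 1. The topoisomerase Top2a was at 9.41 FPKM in CCl4 library 1 and at 0 in the other 4. Cdc20, the activator of the anaphase-promoting complex, was at 14.4 and 0.605 FPKM in CCl4 libraries 1 and 2 and at 0 with oil. Cdk1, the mitotic kinase, was at 6.87 and 0.501 FPKM in the CCl4 libraries and at 0 with oil. Ube2c, the ubiquitin enzyme that works with that complex, had 0, 0.330 and 0 FPKM with oil and 18.8 and 1.05 with CCl4.

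These genes were almost invisible to the test, because a gene had to reach 1 FPKM in 2 libraries: 7 of the 40 were tested and 0 passed. Of the 7, 3 had fewer than 2 oil libraries at 1 FPKM and entered only through the CCl4 libraries. Stmn1, a microtubule regulator, had 4.15, 3.19 and 2.66 FPKM with oil and 68.0 and 5.22 with CCl4, so CCl4 library 2 was just above oil and library 1 far above. Across the whole table, 1031 genes, 914 of them protein coding, reached 1 FPKM in CCl4 library 1 and in none of the other 4, against 107 for CCl4 library 2 and 51 to 79 for the oil libraries. Median-of-ratios scaling left 669 for CCl4 library 1, 99 for CCl4 library 2 and 78 to 166 for the oil libraries. With at least 5 FPKM in the 1 library, 34 genes remained for CCl4 library 1, 0 for CCl4 library 2 and 0 to 3 for the oil libraries. Of those 34, 21 belonged to the lists of cell cycle and DNA replication genes.

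**Figure D3:**
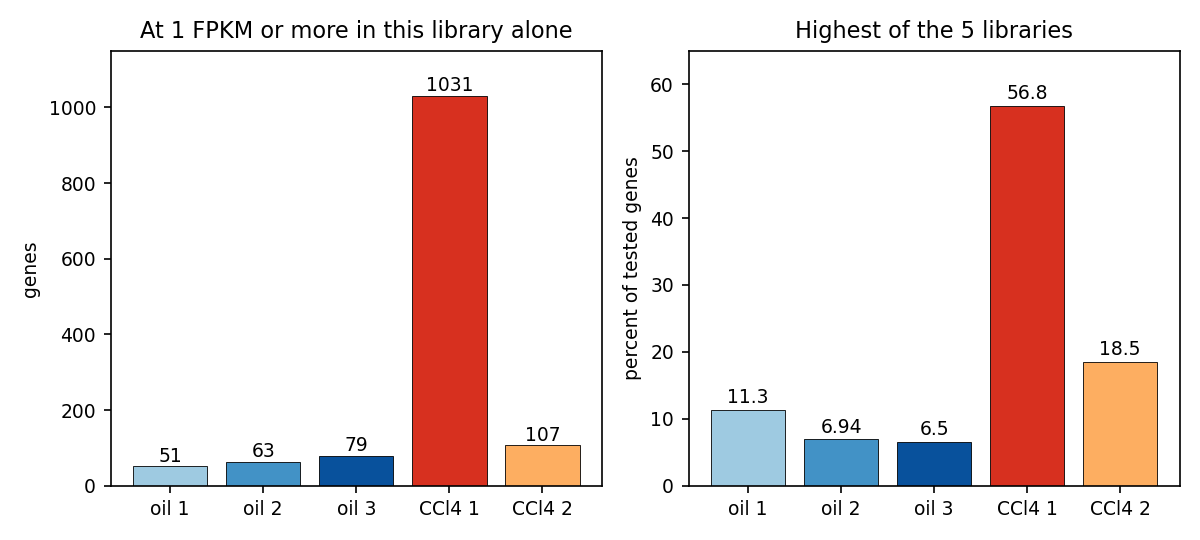
Bars give, for each of the 5 normal diet libraries, the number of genes at 1 FPKM or more in that library and in none of the other 4 (left) and the percentage of the 10686 tested genes whose highest value was in that library (right). CCl4 library 1 has 1031 such genes and 56.8% of the highest values, against 107 and 18.5% for CCl4 library 2.

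Promoters of these genes are known to share 2 short elements, the CCAAT box bound by NF-Y and the cell cycle homology region TTTGAA bound by the DREAM and MuvB complexes. Promoter windows of RefSeq (GRCm38.p6) were found for 34 of the 40 genes, and the 250 bases before each start were searched on both strands for the letters CCAAT and TTTGAA, matches of which can share no more than 1 end letter. CCAAT was present for 26 of the 34 (76.5%), against 37.5% of 27025 genes with such a window and 41.0% of 7712 tested genes that were matched. TTTGAA was present for 9 (26.5%), against 18.3% and 13.0%, and all 9 also held CCAAT, where 6.45% and 4.72% held both. CCAAT was also frequent in the promoters of the DNA replication list (63.0%) and the NRF2 and glutathione list (62.1%). A match describes the letters and is no evidence of binding. Shown, to let the elements be seen in place, are the 150 bases before the start of 4 of the genes that hold both there and were listed at 0 in the oil libraries, 5′ to 3′ on the gene's strand, with CCAAT and TTTGAA in either orientation (ATTGG and TTCAAA) in capitals. Mki67 is at chr7:135716380-135716529 on the minus strand, Top2a at chr11:99024190-99024339 (minus), Cdk1 at chr10:69352913-69353062 (minus) and Cdc20 at chr4:118437344-118437493 (minus).
Mki67: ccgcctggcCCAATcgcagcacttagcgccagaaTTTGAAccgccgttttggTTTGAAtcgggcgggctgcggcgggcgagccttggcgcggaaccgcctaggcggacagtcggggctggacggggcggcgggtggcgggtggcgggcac
Top2a: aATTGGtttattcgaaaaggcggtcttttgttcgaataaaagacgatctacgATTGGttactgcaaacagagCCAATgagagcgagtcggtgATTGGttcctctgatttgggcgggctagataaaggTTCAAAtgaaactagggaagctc
Cdk1: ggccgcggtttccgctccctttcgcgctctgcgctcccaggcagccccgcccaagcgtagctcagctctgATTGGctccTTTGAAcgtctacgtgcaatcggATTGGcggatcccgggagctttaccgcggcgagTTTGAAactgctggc
Cdc20: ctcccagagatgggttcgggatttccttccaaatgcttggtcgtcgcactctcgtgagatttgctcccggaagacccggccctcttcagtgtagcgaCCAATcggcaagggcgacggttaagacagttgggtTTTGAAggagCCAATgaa

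DNA replication genes followed at a lower contrast. Of 34, 33 were highest in CCl4 library 1, where 57.5% of all genes above 0 in any of the 5 libraries were. Of the 34, 13 reached 1 FPKM in CCl4 library 1 alone. The summed level of the 34 was 85.5, 77.1 and 63.9 FPKM with oil and 291 and 110 with CCl4. Of 19 tested, 1 rose, cyclin D1 (Ccnd1), which drives entry into the cycle. Ccnd1 had 2.45, 3.26 and 1.62 FPKM with oil and 29.8 and 10.4 with CCl4, a difference of 2.47 ± 0.40 (adjusted p = 0.0289), and unlike the mitotic genes it was well above oil in both libraries. Its call was lost without any 1 oil library, CCl4 library 1 or either western diet and oil library (adjusted p up to 0.118), and 13 genes of the list passed without CCl4 library 2. Rrm2, a subunit of ribonucleotide reductase, had 2.53, 1.95 and 0.816 FPKM with oil and 28.3 and 3.86 with CCl4, and the helicase subunit Mcm6 had 0.950, 0.737 and 0.272 with oil and 15.2 and 1.09 with CCl4. The p53 target Cdkn1a, which stops the cycle, was also highest in CCl4 library 1, as were 56.8% of all tested genes. Cdkn1a had 2.94, 1.92 and 5.25 FPKM with oil and 15.8 and 3.10 with CCl4, and 0 of 18 tested p53 targets passed.

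Matrix and scar genes were high in CCl4 library 1, and in library 2 some lay above oil and others inside its range. Col1a1, the main fibrillar collagen, had 0.384, 2.68 and 0.284 FPKM with oil and 16.4 and 1.77 with CCl4. Col3a1 had 1.34, 5.27 and 1.06 FPKM with oil and 40.5 and 4.76 with CCl4. For both collagens CCl4 library 2 lay inside the oil range, whose upper end was oil library 2. Of 12 tested collagens 0 rose and 1 fell, Col27a1, with 3.19, 3.09 and 4.13 FPKM with oil and 1.04 and 1.57 with CCl4 (difference -0.96 ± 0.18, adjusted p = 0.0484), lost without any 1 oil library, CCl4 library 1 or either western diet and oil library (up to 0.296). Of 21 tested matrix glycoprotein genes 1 rose, Mfap4, listed at 0 with oil and at 2.45 and 1.14 FPKM with CCl4 (adjusted p = 0.0282), so that it was tested only through the CCl4 libraries, and it missed without any 1 oil library or either western diet and oil library (up to 0.0798). With a mean of at least 5 FPKM the count was 0. Sparc, a collagen-binding glycoprotein, had 7.80, 12.9 and 7.74 FPKM with oil and 68.6 and 18.1 with CCl4, and Col14a1, a fibril-associated collagen, had 3.12, 3.26 and 2.46 with oil and 15.8 and 6.90 with CCl4. Both were above oil in both libraries and did not pass (adjusted p = 0.108 and 0.0506). Without CCl4 library 2, 11 of that list passed. Their summed level was 4.49-fold the oil mean in library 1 and 1.15-fold in library 2, of which osteopontin (Spp1) was a large part, with 19.2, 39.1 and 17.3 FPKM with oil and 455 and 26.8 with CCl4. The myofibroblast actin Acta2 had 0.490, 0.958 and 1.21 FPKM with oil and 4.27 and 0.830 with CCl4, and the protease inhibitor Timp1 had 0, 2.83 and 0 with oil and 3.07 and 0.490 with CCl4.

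Markers of several cell types moved together with these genes in CCl4 library 1. The 5 stellate cell markers (Lrat, Reln, Des, Colec11 and Pdgfrb) summed to 10.5 to 11.5 FPKM with oil and to 37.5 and 19.2 in CCl4 libraries 1 and 2. The 5 sinusoidal endothelial markers summed to 21.9 to 33.3 FPKM with oil and to 62.2 and 37.6 with CCl4, the 5 Kupffer cell markers to 28.8 to 61.2 with oil and 127 and 54.5 with CCl4, and the 5 hepatocyte markers to 33480 to 42350 with oil and 56190 and 49200 with CCl4. Their part in the collagen and matrix values was not tested. Trem2, a receptor of lipid-associated macrophages, was at 9.82 FPKM in CCl4 library 1 and at 0 in the other 4. Gpnmb, which such macrophages also express, had 0, 1.23 and 0 FPKM with oil and 30.4 and 0.859 with CCl4. Galectin-3 (Lgals3) had 1.60, 4.37 and 2.08 FPKM with oil and 58.7 and 3.88 with CCl4. Of 13 tested genes of monocyte-derived macrophages 1 rose, the lysosomal tetraspanin Cd63, with 1.18, 2.84 and 1.06 FPKM with oil and 44.6 and 9.35 with CCl4 (difference 3.07 ± 0.57, adjusted p = 0.0426), lost without any 1 oil library, CCl4 library 1 or either western diet and oil library (up to 0.14). The MHC class II genes Cd74, H2-Aa and H2-Eb1 were above oil in both CCl4 libraries and did not pass: Cd74 had 26.5, 27.7 and 23.6 FPKM with oil and 121 and 54.2 with CCl4. B cell markers went the other way, with a sum of 46.1, 45.7 and 13.1 FPKM with oil and 7.51 and 9.54 with CCl4, most of it Ighm (45.2, 44.8 and 12.7 with oil, 4.56 and 8.69 with CCl4), which did not pass (adjusted p = 0.0974).

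Genes of endothelium lay mostly above oil and those of resident macrophages in part, further in CCl4 library 1. Of 16 tested Kupffer cell genes 1 rose (Id3) and 1 fell (Cd163), and the median was 0.75 against 0.26 over all genes, with 1.12 in library 1 and 0.31 in library 2. Both CCl4 libraries were above all oil libraries for 8 of the 16 and below them for 3. Of all tested genes, 41.8% and 4.00% were. Cd5l, a secreted scavenger receptor family protein of these cells, had 10.8, 19.7 and 22.7 FPKM with oil and 77.3 and 26.5 with CCl4, and the growth factor receptor Csf1r had 2.37, 4.27 and 4.66 with oil and 13.7 and 5.73 with CCl4. Neither passed. Clec4f, the lectin that defines these cells in mice, had 12.3, 16.3 and 21 FPKM with oil and 30.8 and 16.9 with CCl4, so library 2 lay inside the oil range. Timd4, a receptor of long-resident Kupffer cells, had 0.758, 1.27 and 1.88 FPKM with oil and 0.560 and 0.409 with CCl4, below oil in both, and did not pass (adjusted p = 0.218). Of 17 tested sinusoidal endothelial genes 0 passed and 14 had both CCl4 libraries above all oil libraries, where 41.8% of all tested genes did. Fcgr2b, the Fc receptor of this endothelium, had 5.81, 7.14 and 10.8 FPKM with oil and 18.7 and 15.3 with CCl4 (adjusted p = 0.0823).

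**Figure D4:**
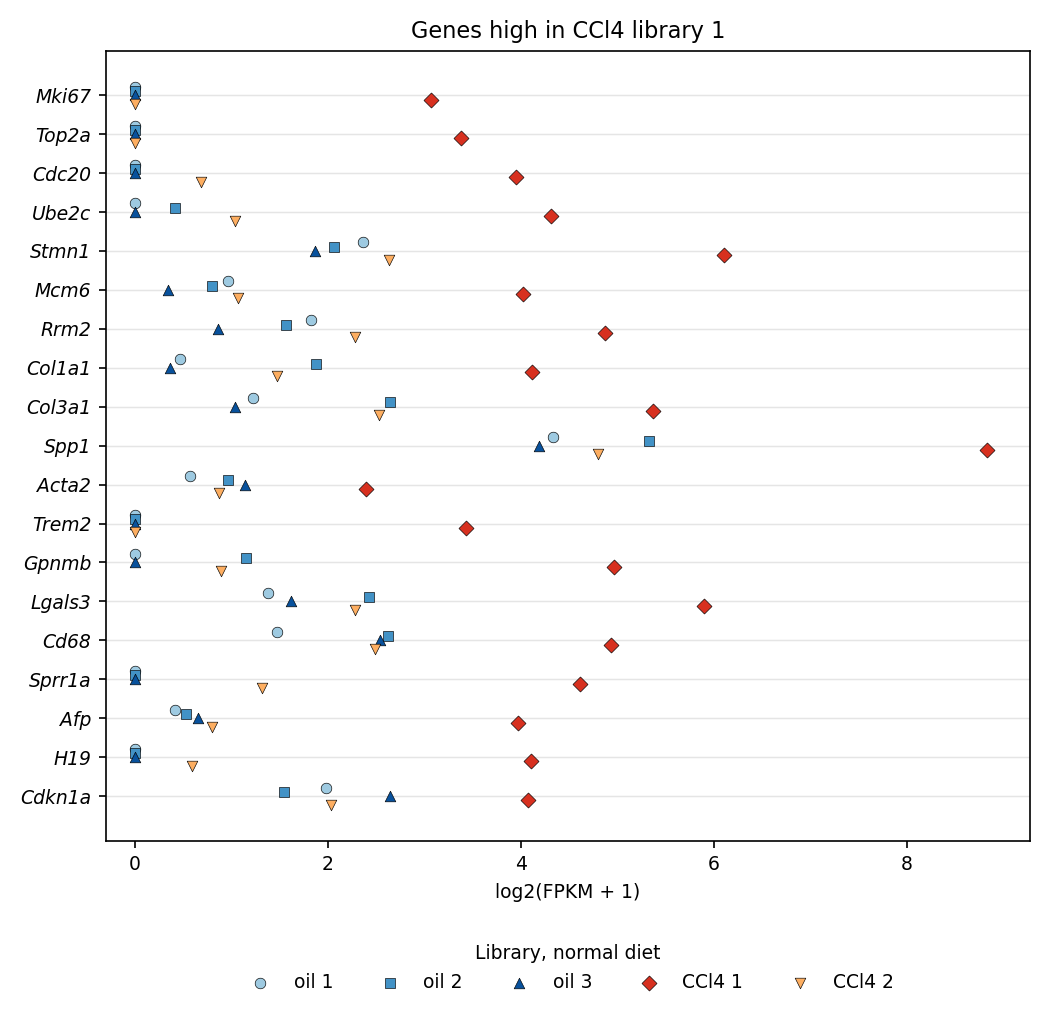
The x axis is log2(FPKM + 1), each row is 1 gene, and each symbol is 1 of the 5 normal diet libraries. CCl4 library 1 is to the right of the other 4 libraries in every row, while CCl4 library 2 lies inside or close to the oil libraries in most rows.

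Genes of fetal liver and liver tumours were, apart from Ly6d, high in CCl4 library 1 mainly. Alpha-fetoprotein (Afp) had 0.336, 0.449 and 0.571 FPKM with oil and 14.7 and 0.741 with CCl4, and the imprinted RNA H19 was at 16.2 and 0.506 FPKM in CCl4 libraries 1 and 2 and at 0 with oil. Neither passed the filter of 2 libraries. Of 5 tested genes in the list 1 rose, Ly6d, and 3, with Ly6d, were tested only through the CCl4 libraries. The sum of the ductular list in CCl4 library 1, 12.7-fold the oil mean, rested on Spp1 and on Sprr1a, a cornified envelope protein listed at 0 with oil and at 23.5 and 1.49 FPKM with CCl4. The 5 cholangiocyte markers summed to 0.369, 0.636 and 1.26 FPKM with oil and to 3.56 and 1.78 with CCl4, above oil in both libraries, and their part in the ductular sum was not tested. Epcam had 0, 0.288 and 0.257 FPKM with oil and 1.32 and 0.583 with CCl4, Krt19 had 0.369, 0.349 and 0.315 FPKM with oil and 0.832 and 0.522 with CCl4, Sox9 had 0, 0 and 0.689 with oil and 1.12 and 0.678 with CCl4, and Cftr was at 0.

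CCl4 library 2 had few features of its own. Angptl8, a feeding-induced regulator of lipoprotein lipase, had 24.9, 21.6 and 20.3 FPKM with oil, 23.8 in CCl4 library 1 and 96.1 in library 2. The lectin Clec2d had 43.8, 40.1 and 42.7 FPKM with oil, 42.2 in CCl4 library 1 and 116 in library 2, and the cytokine signalling inhibitor Cish had 0.385, 1.74 and 3.53 with oil, 2.48 in library 1 and 8.38 in library 2. Hamp2, a hepcidin paralogue, was above oil in both, with 16.6, 20.1 and 2.48 FPKM with oil, 28.6 in library 1 and 220.2 in library 2. Lower in library 2 alone were the hepatokine Fgl1 (510, 568 and 332 FPKM with oil, 369 in library 1 and 137 in library 2) and Igfbp1, which binds insulin-like growth factors (104, 19.5 and 37.7 with oil, 35.7 and 8.96 with CCl4). Lower in library 1 alone were fatty acid synthase, Fasn (61.5, 63.6 and 32.1 FPKM with oil, 13.3 and 38.1 with CCl4), the taurine enzyme Csad (108, 41.4 and 74.7 with oil, 18.4 and 78.1 with CCl4) and the cytochrome oxidase assembly gene Sco2 (8.67, 9.49 and 9.89 with oil, 2.55 and 9.70 with CCl4).

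Urea cycle and amino acid genes were highest in CCl4 library 2 for 22 of 27 genes, where 18.5% of all tested genes were. Their summed level was 1.09-fold the oil mean in library 1 and 1.58-fold in library 2. Ass1, which joins citrulline and aspartate, had 959, 849 and 653 FPKM with oil and 1036 and 2095 with CCl4. The tryptophan dioxygenase Tdo2 was the 1 of 27 that rose, with 204, 188 and 181 FPKM with oil and 436 and 345 with CCl4 (difference 1.02 ± 0.19, adjusted p = 0.0416), and its call was lost without any 1 oil library, CCl4 library 1 or either western diet and oil library (adjusted p up to 0.268).

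Cholesterol synthesis lay below oil in both CCl4 libraries without a call. Of 25 tested genes 0 passed, 23 had a difference below 0, 18 had both CCl4 libraries below all oil libraries (4.00% of all tested genes did), and the median was -0.66, with -0.86 in CCl4 library 1 and -0.35 in library 2. Hmgcs1, the synthase at the head of the pathway, had 91.0, 93.3 and 96.3 FPKM with oil and 27.2 and 55.8 with CCl4 (difference -1.24 ± 0.37, adjusted p = 0.124). Mvd, mevalonate decarboxylase, had 14.4, 12.5 and 17.0 FPKM with oil and 2.49 and 9.19 with CCl4. Under each scale used, the list median stayed below 0.

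**Figure D5:**
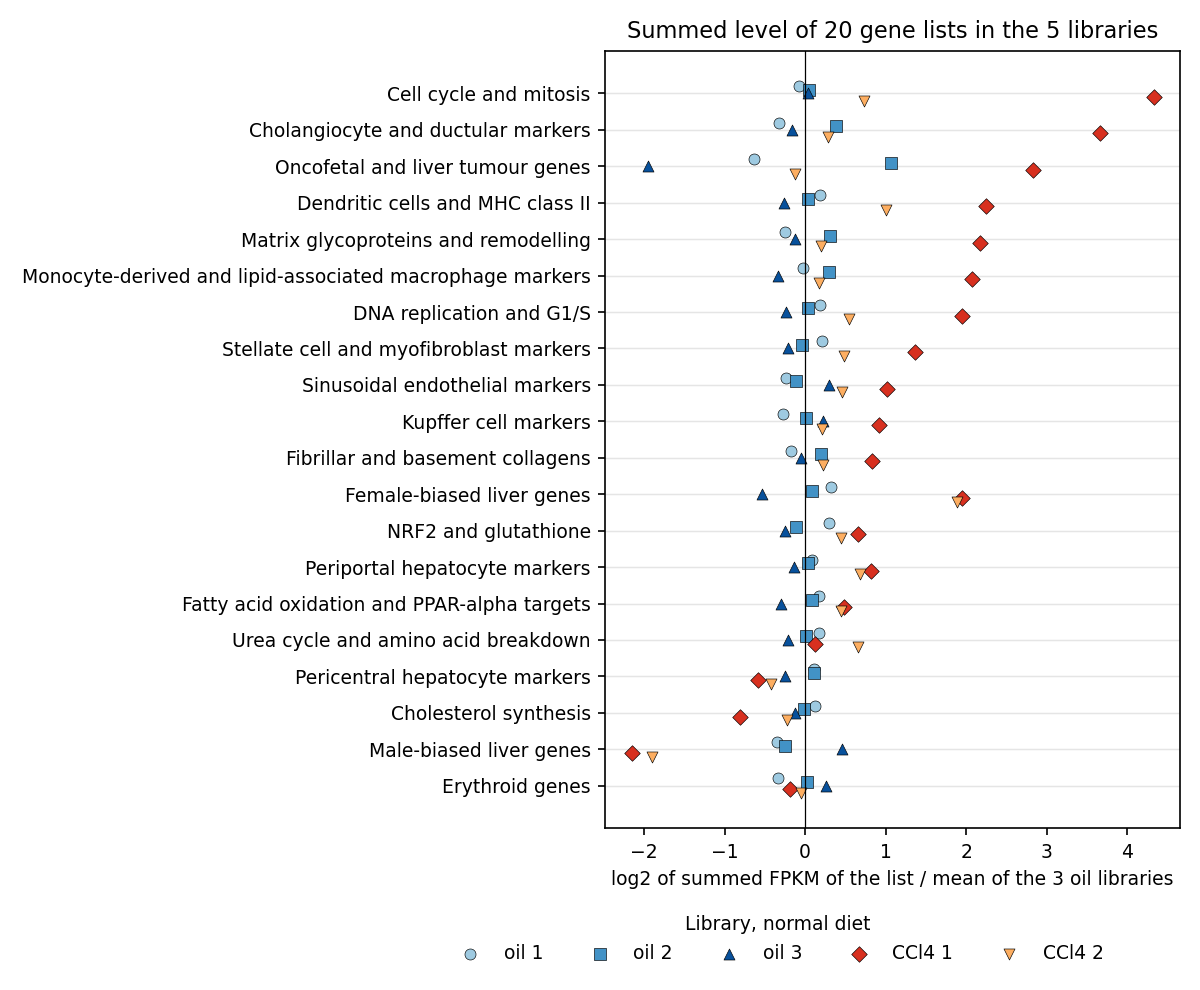
The x axis is log2 of the summed FPKM of a gene list divided by the mean of that sum over the 3 oil libraries, each row is 1 of 20 lists, and each symbol is 1 of the 5 normal diet libraries. Cell cycle, ductular, matrix and macrophage lists are set apart mainly by CCl4 library 1, female-biased and male-biased lists by both CCl4 libraries, and the urea cycle list by CCl4 library 2.

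Other lists held no call that passed. None of 26 acute phase genes passed, and Saa1, a serum amyloid, had 1116, 1923 and 123 FPKM with oil and 65.7 and 46.2 with CCl4, below an oil range that was itself wide. The metallothionein Mt1 had 323, 90.8 and 8.28 FPKM with oil and 268 and 56.2 with CCl4, within an oil range that was also wide. The counts were also 0 of 33 complement and coagulation genes, 0 of 29 genes of the ER stress response, 0 of 22 heat shock and immediate early genes, 0 of 21 lipogenic genes, 0 of 23 hepatocyte transcription factors and 0 of 19 clock genes. As checks of RNA quality, the 13 mitochondrially encoded genes had a median of -0.10 and 34 cytosolic ribosomal protein genes one of 0.28, with 0.48 in CCl4 library 1 and 0.09 in library 2, and 0 passed in either list. Over all genes, 2447 had an unadjusted p below 0.05.

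Whether the CCl4 difference was another under the western diet was tested with the interaction in the same fit, which had 1 library of western diet with CCl4. Because that arm is 1 library, its spread was taken from the other groups. Of 10686 genes 2 passed (0.0187%), both of the Mup family, 0 passed under median-of-ratios scaling, without oil library 2 or without CCl4 library 1, 77 passed without CCl4 library 2, 8 without oil library 3 and 1 without either western diet and oil library, and 1021 had an unadjusted p below 0.05. Hsd3b5, low with CCl4 on normal diet, was already low with western diet and oil, at 9.05 and 1.81 FPKM, and stood at 1.32 in the western diet and CCl4 library. Ly6d was at 64.3 and 73.3 FPKM with western diet and oil and at 220.0 with western diet and CCl4. Gsta1 had 6.14 and 18.3 FPKM with western diet and oil and 10 with CCl4, inside that range, and Cyp3a11 had 337 and 389 with oil and 163 with CCl4, below it, where on normal diet both were higher with CCl4. The interaction was not called for any of these 4. Mki67 was at 0.520 and 0.294 FPKM with western diet and oil and at 0.713 with CCl4, and Spp1 at 58.4 and 94.8 with oil and 170 with CCl4. The summed level of the 40 cell cycle genes was 35.0 and 28.6 FPKM with western diet and oil and 45.0 with CCl4.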

How the data were processed

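Liver RNA of 8 libraries was measured by RNA sequencing (libraries with a TruSeq Stranded mRNA kit, according to the labels), and 5 of them were compared here. The deposited values are FPKM per gene for 55487 genes, made by the authors. The submitters' processing notes list the build GRCm38 and the tools HISAT2 2.2.1, StringTie 2.1.0, cutadapt 3.7 and FastQC 0.11.9, without their roles or settings. The lowest FPKM above 0 was 0.252 to 0.318 per library, so a 0 means unlisted or below such a level. Coordinates came from GENCODE M21 (55394 identifiers found), and 27 symbols deposited as dates were used by identifier. No pair of libraries held identical values. Columns were matched to samples by the labels.

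Genes with at least 1 FPKM in at least 2 of the 5 libraries were tested on log2(FPKM + 1) with limma 3.58.1 in R 4.3.3 (a mean per group over all 8 libraries, eBayes with a trend, two-sided, Benjamini-Hochberg over 10686 genes, threshold 0.05). The fit had 4 residual, 3.99 prior and 7.99 total degrees of freedom, and the script was tested on simulated data. The labels do not state that each library is another animal, so p-values measure only how far these samples spread, which may be technical. Gene lists (44) were described by counts, medians and sums, with no list test. The genes named were up to 10 of the largest rises and falls that passed, up to 4 per list, up to 10 per shared and 8 per 1-library class, and 26 fixed genes; members named beyond this were chosen after their values were seen. The comparison, members and lists were chosen with earlier results of these data known. Alternatives were a pseudocount of 0.1, no filter or a mean of at least 5 FPKM, 3 scalings, robust eBayes, the 5 libraries alone, the replicate number as a block, unadjusted p with a change of at least 1, and leaving out each library. A fit without oil library 3 and CCl4 library 1, and the 2 alternatives for genes of 1 library (a minimum of 5 FPKM and median-of-ratios scaling), were chosen after seeing the data. Some results are not reported here.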

Additional observations from a re-analysis of the deposited data

Results flagged for a closer look

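For 2 genes the interaction of diet and CCl4 passed in limma, with the spread of its 1 western diet and CCl4 library taken from the other groups. For Mup12, a major urinary protein gene, the difference was higher under the western diet by 7.71 ± 0.718 on the log2 scale (SE; adjusted p = 0.0475). Its levels were 5848, 11870 and 18400 FPKM in the normal diet and oil libraries, 173 and 191 with CCl4, 1045 and 1258 in the western diet and oil libraries and 4049 in the western diet and CCl4 library. For Mup15 the interaction was 4.80 ± 0.483 (adjusted p = 0.0475), with 2184 and 3553 FPKM in the western diet and oil libraries and 2437 in the western diet and CCl4 library. Both rest on that 1 library, and 0 genes passed under median-of-ratios scaling, without oil library 2 or without CCl4 library 1. The Mup family consists of near-identical copies, so the assignment of fragments to either gene is uncertain.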

How the results depend on the processing

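The number of genes that passed (181) was 148 with a pseudocount of 0.1, 138 with no filter, 123 with a mean of at least 5 FPKM, 613 after scaling to a common sum, 104 under median-of-ratios scaling, 126 with the Mup family removed, 165 with robust eBayes and 98 with the 5 libraries alone. It was 537 by unadjusted p with a change of at least 1, and 31 to 668 with 1 library left out. Without oil library 3 and CCl4 library 1, both set apart from their groups, it was 59 (18 higher, 41 lower).

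With the replicate number as a block, 59 genes passed (21 higher, 38 lower), 50 of them among the 181. Same-numbered libraries did not deviate together (correlations -0.022 and -0.104), so the numbers were not taken as pairs.

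The 2 genes of the interaction became 3 with a pseudocount of 0.1, 0 under median-of-ratios scaling and 0 to 77 with 1 library left out.

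Of the descriptive classes, a step of 2 gave 17 shared higher, 28 shared lower, 11 and 0 higher in CCl4 library 1 or 2 alone, and 1 and 1 lower. A step of 0.5 gave 361, 115, 391, 54, 71 and 28 in the same order. Median-of-ratios scaling gave 42 shared higher, 3 higher in library 2 alone and 23 lower in library 1 alone, removal of the Mup family 34 shared lower, and a pseudocount of 0.1 gave 146 shared higher, 13 higher in library 2 alone, and 28 and 23 lower in library 1 or 2 alone. With 1 oil library left out, CCl4 library 1 alone was higher for 63 to 101 genes and lower for 9 to 20, and CCl4 library 2 alone was lower for 6 to 15.

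None of the 51 named genes that passed changed direction under any alternative, and 266 of their 930 values no longer passed. The direction of these 51 could not turn with a library left out, because their CCl4 libraries lay beyond all oil libraries. Some genes that did not pass changed sign. Cyp1a2 was at 0.10 (log2 difference) after scaling to a common sum, Igf1 at -0.14 under median-of-ratios scaling and Mt1 at -0.476 with the replicate block. With 1 library left out, or oil library 3 and CCl4 library 1 together, the difference ran from -0.0186 to 2.02 for Cdkn1a, -1.86 to 0.22 for Csad, -0.525 to 0.241 for Cyp1a2, -0.371 to 1.11 for Gclc, -0.308 to 1.39 for Hmox1, -0.0585 to 0.429 for Igf1, -1.59 to 2.09 for Mt1, -0.557 to 0.0138 for Mup20, -1.54 to 0.0864 for Sco2 and -0.0336 to 4.21 for Spp1. The cause of these changes was not tested. With 2 CCl4 libraries that differed and no counts, small changes and genes near 1 FPKM could not be told from the spread between libraries.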
